A study of Gelatoporia subvermispora and Trametes versicolor with 24 samples.

Results

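The loci described here are the 83 genes of Gelatoporia subvermispora, a white-rot fungus, whose RNA stood at least 4-fold higher in cultures given vanillate than in cultures given water. They were chosen by a ratio, the mean level of 3 vanillate flasks plus 1 divided by the mean of 3 water flasks plus 1, with levels in CPM, gene counts scaled by TMM to a common library total. The 83 loci came from 12203 that carry a locus identifier (CERSUDRAFT_), or 0.680% of them. The fungus has 12313 genes in the tables, and the series has 26883 over both of its fungi. None of the 110 G. subvermispora genes with a symbol reached the ratio. Because the vanillate and water flasks themselves chose the loci, their levels and fold changes are given as a description, and no support is drawn from any test on them.

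Vanillate flasks held G. subvermispora strain FP-105752, grown as a monokaryon, in static 25 mL cultures on 5 g/L cellobiose at 28 °C in the dark. On day 12 the antioxidants ascorbic acid (5 mM) and α-tocopherol (1 mM) were added. Vanillate followed after 30 min, to a final 2 mM, and a further pulse came 12 h after that. Water flasks had the same strain, medium, ascorbic acid and α-tocopherol, and equal volumes of autoclaved water in place of both pulses. Mycelium of both groups was collected 12 h after the last pulse, on day 13. Each group had 3 flasks. The labels give 2 libraries under the title of each flask and do not explain the second. It was taken as a repeat of the same flask, and the 2 were added together. All flasks came from 1 strain, whose seed cultures were homogenised and passed on, and whether flasks of a group had separate seeds is not stated.

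Vanillate is the anion of a phenolic acid with a methoxy group, one of the aromatic compounds set free when lignin is broken down. Its breakdown in fungi is known to involve the loss of the carboxyl group, the removal of the methyl group, and the opening of the ring by a dioxygenase. Extradiol dioxygenases cut the ring beside the neighbouring hydroxyl groups and intradiol dioxygenases cut between them, and the title of the series concerns an extradiol enzyme that departs from the known kind. The tables name the 83 loci by identifier only, and no product, gene order or sequence for them was used here. No function is therefore stated for any of them.

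Flask depth was 6119420 to 12333618 gene counts with vanillate and 8498106 to 9765746 with water. Genes took 74.1% ± 3.53 (SD, n = 3) of reads in vanillate flasks and 78.5% ± 1.82 in water flasks. Vanillate flask 1 had the fewest counts and the largest share of reads of low alignment quality, 12.3%, against 5.98% and 6.74% in the other vanillate flasks and 4.04% to 5.57% in the water flasks. Repeat libraries of a flask differed by a chi-square of 1.01 to 1.07 per degree of freedom, against 2.99 to 8.96 between libraries of different flasks of a group. Counting intervals and floors given here cover counting error only, since the reads carry no molecular identifiers. In RNA from whole mycelium, more RNA per cell and more cells holding that RNA cannot be told apart.

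Together the 83 loci took 4.91% ± 0.368 (SD, n = 3) of gene counts with vanillate and 0.549% ± 0.0231 with water. The vanillate flasks stood at 4.50%, 5.20% and 5.03%, against 0.535%, 0.535% and 0.575% in the water flasks. The groups were far apart and the flasks of each were close, and the choice of loci by the ratio itself sets the distance between the groups. All 83 loci passed the filter on low counts, and every vanillate flask exceeded every water flask in all 83, as it did in 29.0% of the 10318 genes tested. All 83 were called higher by edgeR's quasi-likelihood test at a Benjamini-Hochberg adjusted p under 0.05, as were 25.5% of genes tested. With library totals in place of TMM, 1788 of all genes tested were higher and 3812 lower, against 2629 and 2675 with TMM. The same contrast chose the loci, so these counts say nothing further about them.

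**Figure D1:**
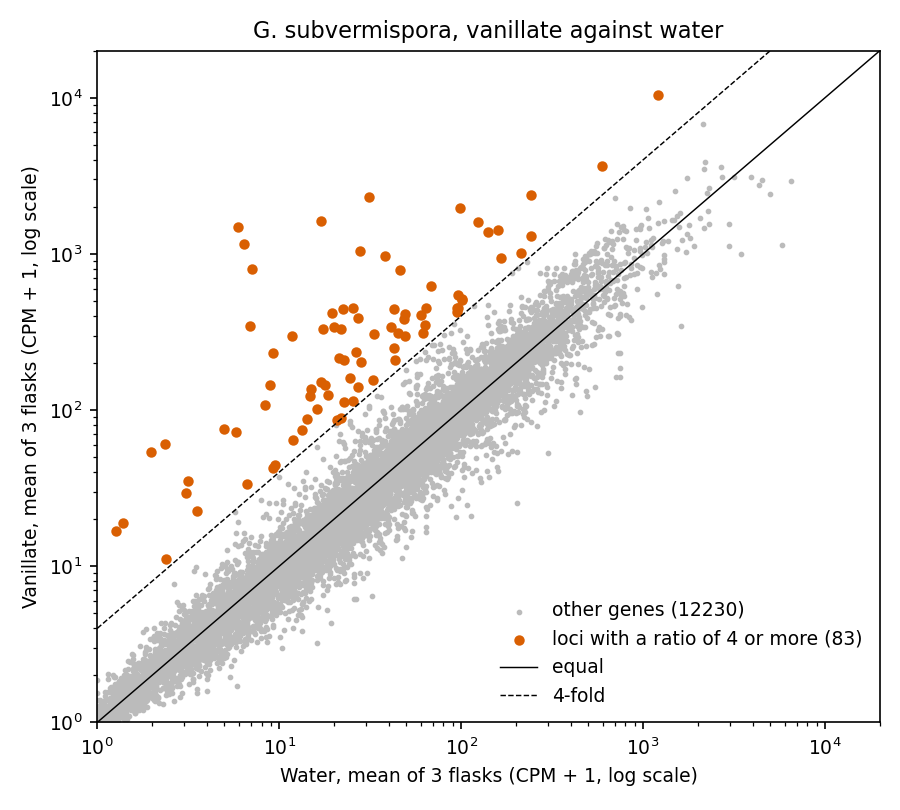
Mean level in 3 vanillate flasks (vertical axis) against 3 water flasks (horizontal axis), both as CPM + 1 on log scales, for all 12313 genes of G. subvermispora. The 83 chosen loci (orange) lie on or above the dashed 4-fold line and span water means of 0.27 to 1214 CPM.

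The ratio covered a wide range. Its median was 8.62, with 37 loci from 4 to under 8, 26 from 8 to under 16, 13 from 16 to under 32, 2 from 32 to under 64, and 5 at 64 or more. On the log2 scale of the fit the fold changes ran from 2.07 to 8.23 with a median of 3.14, while the median over all genes tested was -0.01. The lowest vanillate flask exceeded the highest water flask by at least 4-fold in 72 of the 83 loci. These 72 were all of the genes tested with that separation (0.698% of 10318), so the share is no separate background. In the other 11 that separation was 2.66-fold to 3.91-fold, and it was smallest in CERSUDRAFT_90002, a locus chosen for mention after its values were seen.

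**Figure D2:**
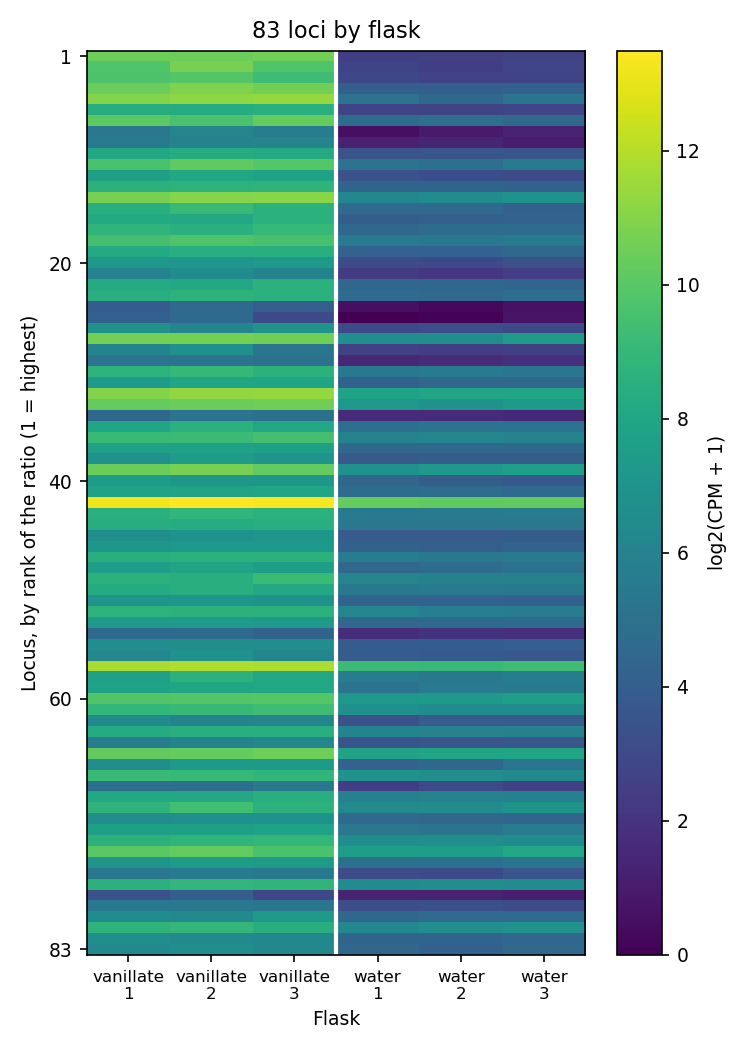
Level of each of the 83 loci (rows, ordered by the ratio from highest to lowest) in each flask (columns, vanillate flasks left of water flasks), as log2(CPM + 1). In every row the 3 vanillate columns are brighter than the 3 water columns, and the brightest row is CERSUDRAFT_119302.

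The 5 loci with ratios of 64 or more had at least 628 CPM in every vanillate flask and at most 35.4 CPM in any water flask. CERSUDRAFT_157295 had 1480.2, 1418 and 1549.6 CPM in the vanillate flasks, against 4.61, 4.87 and 5.27 CPM in the water flasks. It had the highest ratio, 251, with a log2 fold change of 8.23 (SE 0.10), on 40134 counts with vanillate and 138 with water. The spread between its vanillate flasks was small, 4.44% of the mean (SD over mean). CERSUDRAFT_116559 had 868, 1698 and 888 CPM in the vanillate flasks, against 5.62, 4.65 and 6.07 CPM in the water flasks. Here vanillate flask 2 was up to 1.96-fold above the other vanillate flasks, and the log2 fold change of 7.72 carried an SE of 0.47. CERSUDRAFT_98240 had 830.1, 941 and 628 CPM in the vanillate flasks, against 6.63, 5.75 and 5.77 CPM in the water flasks, a log2 fold change of 7.05 (SE 0.19). Flask 3 was the lowest of the vanillate group at this locus, and the water flasks were nearly level.

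CERSUDRAFT_69697 had 1349.8, 1919 and 1599 CPM in the vanillate flasks, against 16.1, 15.2 and 17.0 CPM in the water flasks. Its ratio was 95.1, with a log2 fold change of 6.66 (SE 0.15). CERSUDRAFT_140923 had 2036, 2316 and 2611 CPM in the vanillate flasks, against 33.7, 21.5 and 35.4 CPM in the water flasks. Both were already measured at more than 10 CPM in each water flask, and both exceeded 1000 CPM in each vanillate flask. For CERSUDRAFT_140923 this gave a log2 fold change of 6.26 (SE 0.21), and the lowest of its water flasks was flask 2. By reads, without correction for gene length, CERSUDRAFT_140923 ranked 19 of 12313 genes with vanillate and 5957 with water.

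**Figure D3:**
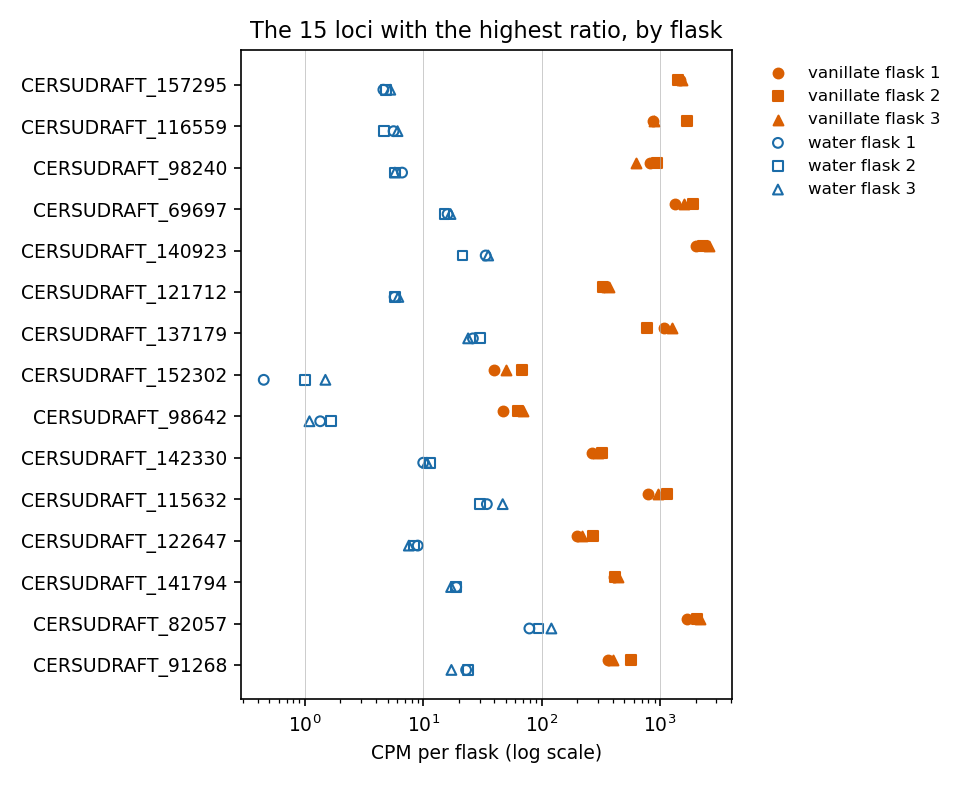
CPM per flask on a log scale for the 15 loci with the highest ratio, ordered from the highest ratio at the top. Filled orange symbols are vanillate flasks and open blue symbols are water flasks, and the symbols of the groups stay apart at every locus.

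Ratios from 16 to 64 included 10 of the loci named here. CERSUDRAFT_121712 had 332, 331 and 373 CPM in the vanillate flasks, against 5.73, 5.75 and 6.17 CPM in the water flasks, a log2 fold change of 5.87 (SE 0.09). CERSUDRAFT_137179 had 1081, 774 and 1274 CPM in the vanillate flasks, against 26.3, 30.1 and 24.0 CPM in the water flasks, a log2 fold change of 5.28 (SE 0.23). The flasks of CERSUDRAFT_121712 were close in both groups, whereas at CERSUDRAFT_137179 vanillate flask 3 was 1.65-fold higher than flask 2. CERSUDRAFT_152302 had 39.9, 68.8 and 50.2 CPM in the vanillate flasks, against 0.45, 1.00 and 1.49 CPM in the water flasks. It rested on only 28 counts in the water flasks, and the 95% counting interval of its ratio of counts, 56.0, was 38.6 to 84.6 (exact binomial). CERSUDRAFT_98642 had 46.8, 62.6 and 70.0 CPM in the vanillate flasks, against 1.35, 1.66 and 1.09 CPM in the water flasks, on 38 counts with water. Both of these loci were at or under 1.66 CPM in every water flask.

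CERSUDRAFT_142330 had 267, 324 and 300.0 CPM in the vanillate flasks, against 10.00, 11.4 and 10.7 CPM in the water flasks, a log2 fold change of 4.80 (SE 0.10). CERSUDRAFT_122647 was similar in size, with 200.3, 269.9 and 220.4 CPM in the vanillate flasks, against 8.99, 8.30 and 7.56 CPM in the water flasks, a log2 fold change of 4.80 (SE 0.13). Neither group of either locus varied by more than 1.5-fold between its flasks. CERSUDRAFT_115632 averaged 967 ± 183 CPM with vanillate and 37.1 ± 8.78 CPM with water (SD, n = 3 each), a log2 fold change of 4.70 (SE 0.23). CERSUDRAFT_141794 averaged 419.7 ± 16.9 CPM with vanillate and 18.4 ± 1.04 CPM with water (SD, n = 3 each), a log2 fold change of 4.51 (SE 0.08). Of this pair CERSUDRAFT_141794 varied far less between vanillate flasks, by 4.02% of the mean, against 18.9% at CERSUDRAFT_115632. CERSUDRAFT_82057 had 1689, 2069 and 2177 CPM in the vanillate flasks, against 78.9, 94.4 and 121 CPM in the water flasks, a log2 fold change of 4.33 (SE 0.18). CERSUDRAFT_91268 had 362, 568 and 403 CPM in the vanillate flasks, against 23.0, 23.8 and 17.3 CPM in the water flasks, a log2 fold change of 4.39 (SE 0.24). In CERSUDRAFT_82057 the highest flask of each group was flask 3, and in CERSUDRAFT_91268 vanillate flask 2 stood above the others. The 5 other loci with ratios from 16 to under 32 had means of 144 to 791 CPM with vanillate and 7.96 to 45.0 CPM with water, and log2 fold changes of 4.14 to 4.32.

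The 15 loci with the highest ratios supplied 28.1% of the summed gain in CPM, and the 11 loci with water means of at least 100 CPM supplied 47.5%. CERSUDRAFT_119302 alone accounted for 20.1% of the summed gain in CPM of the 83 loci, the 5 loci with the largest gains for 40.4%, the 10 largest for 55.7% and the 20 largest for 73.7%. CERSUDRAFT_119302 had 9507, 11499 and 10409 CPM in the vanillate flasks, against 1248, 1185 and 1209 CPM in the water flasks, a log2 fold change of 3.11 (SE 0.09). Those reads were 1.00% of gene counts with vanillate and 0.127% with water, and by reads it ranked 1 of 12313 genes with vanillate and 49 with water. Its water mean of 1214 CPM was the highest of the 83, so the largest source of reads in the set was a locus well covered in both groups. Gene lengths are not in the tables, so the order of loci by reads is not an order of transcript numbers.

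CERSUDRAFT_138397 ranked next by reads, with 3502, 3712 and 3689.7 CPM in the vanillate flasks, against 579, 559 and 639.8 CPM in the water flasks, a log2 fold change of 2.62 (SE 0.08). The spread between its vanillate flasks was 3.18% of the mean (SD over mean). CERSUDRAFT_119636 had 2039.6, 2480.1 and 2615 CPM in the vanillate flasks, against 227, 247 and 250.3 CPM in the water flasks, a log2 fold change of 3.30 (SE 0.10). CERSUDRAFT_118403 had 1605, 1651 and 1529 CPM in the vanillate flasks, against 98.1, 99.0 and 172 CPM in the water flasks. The vanillate flasks of CERSUDRAFT_118403 were level, and water flask 3 stood above the other water flasks. Its mean levels gave a log2 fold change of 3.70 (SE 0.26). CERSUDRAFT_119781 averaged 1422 ± 236 CPM with vanillate and 158 ± 39.0 CPM with water (SD, n = 3 each), a log2 fold change of 3.17 (SE 0.23). CERSUDRAFT_116910 averaged 1371 ± 154 CPM with vanillate and 140.3 ± 21.5 CPM with water (SD, n = 3 each), a log2 fold change of 3.29 (SE 0.12).

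**Figure D4:**
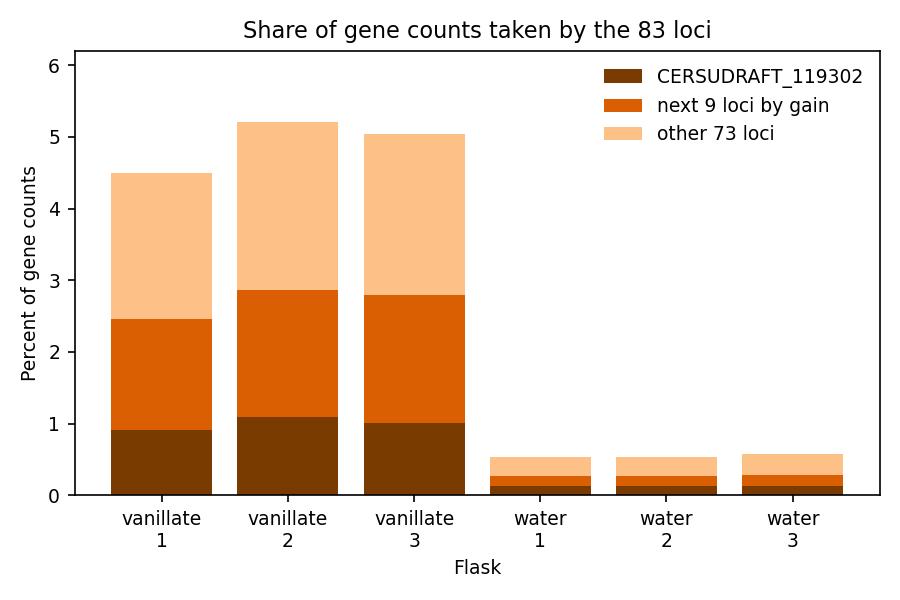
Percent of gene counts taken by the 83 loci in each flask, as bars from 0, split into CERSUDRAFT_119302, the 9 loci with the next largest gains and the other 73. The bars reach 4.50% to 5.20% with vanillate and 0.535% to 0.575% with water, and CERSUDRAFT_119302 makes up 0.907% to 1.09% with vanillate.

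With vanillate none of the 83 loci averaged under 10 CPM, 18 were from 10 to under 100 CPM, 51 from 100 to under 1000, and 14 at 1000 or more. With water the loci covered a wider range, with means under 1 CPM at 3 loci, from 1 to under 10 at 17, from 10 to under 100 at 52, from 100 to under 1000 at 10, and above that at 1. By reads, 13 of the loci were among the first 100 genes with vanillate and 1 with water, and 48 were among the first 1000 with vanillate and 4 with water. The 20 loci under 10 CPM with water had a median ratio of 13.4 and supplied 10.2% of the summed gain. The 52 from 10 to under 100 CPM had a median ratio of 8.02 and supplied 42.4%, and the 11 at 100 CPM or more had a median of 6.12 and supplied 47.5%. The water mean is also the divisor of the ratio, so these medians are not independent of the classes. The 1 CPM added to each mean lowers the ratio most where the water mean is low. Across the 83 loci, log2 means with vanillate and with water had a Pearson r of 0.79 and a Spearman rho of 0.73. Both means of a locus carry the same unknown gene length, and the threshold of the ratio constrains these values.

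CERSUDRAFT_116134 and CERSUDRAFT_116872, also among the 5 highest water means, had ratios of 5.37 and 4.76. CERSUDRAFT_119636, with a water mean of 241 CPM near the 242 CPM of CERSUDRAFT_116134, had a ratio of 9.83. CERSUDRAFT_116134 had 1205, 1268 and 1450.3 CPM in the vanillate flasks, against 234, 247 and 247 CPM in the water flasks, a log2 fold change of 2.43 (SE 0.08). CERSUDRAFT_116872 had 1032, 1202 and 792 CPM in the vanillate flasks, against 183, 180.5 and 270.5 CPM in the water flasks, a log2 fold change of 2.26 (SE 0.24). At CERSUDRAFT_116872 the vanillate flasks ranged over 1.52-fold and water flask 3 was the highest of its group, so that the lowest vanillate flask was 2.93-fold above the highest water flask.

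At the other end, 3 loci had water means under 1 CPM, where the 1 CPM added to each mean holds the ratio down. CERSUDRAFT_161387 had 16.6, 23.9 and 6.78 CPM in the vanillate flasks, against 0, 0.11 and 0.70 CPM in the water flasks. No read was counted in water flask 1, which allows up to 0.337 CPM there (3 counts). Its ratio was 13.2, but its means differed 58.6-fold and its log2 fold change was 5.74 (SE 1.02), the seventh highest of the 83 against a rank of 25 by the ratio. That value rested on 8 counts in the water flasks, 7 of them in flask 3, and without water replicate 3 it was 7.84, on 1 count in the other water flasks, a fitted value that depends on the prior count. The ratio of counts was then 292, with a 95% counting interval of 52.1 to 11557. Over all flasks the 95% interval of its ratio of counts by counting error alone was 28.7 to 133 (exact binomial). CERSUDRAFT_72108, named after its values were seen, was likewise at rank 24 by the ratio and 9 by the fit, with means of 17.9 ± 5.08 CPM with vanillate and 0.39 ± 0.15 CPM with water (SD, n = 3 each), a log2 fold change of 5.49 (SE 0.33), on 11 counts in water. The remaining locus of this kind was CERSUDRAFT_152302, described above.

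Loci not chosen for an extreme ratio, level or spread filled the middle of the set. The 19 with ratios from 8 to under 16 had vanillate means of 17.9 to 621 CPM with a median of 207, and water means of 0.39 to 67.2 CPM with a median of 20.4. Their log2 fold changes were 3.08 to 5.49. The 28 with ratios from 4 to under 8 had vanillate means of 21.7 to 943 CPM with a median of 228, and water means of 2.54 to 165 CPM with a median of 41.9. Their log2 fold changes were 2.24 to 3.08. With the 5 from 16 to under 32 they make 52 loci, which include CERSUDRAFT_72108, CERSUDRAFT_90002 and CERSUDRAFT_114943, named singly for other values.

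The values ran on across the threshold. Just inside it, CERSUDRAFT_53162 had a ratio of 4.05, with means of 87.4 ± 8.75 CPM with vanillate and 20.8 ± 3.09 CPM with water (SD, n = 3 each). CERSUDRAFT_83486 had a ratio of 4.17, with means of 85.7 ± 9.35 CPM with vanillate and 19.8 ± 1.06 CPM with water (SD, n = 3 each). CERSUDRAFT_114386, CERSUDRAFT_140571 and CERSUDRAFT_97176 followed at ratios of 4.46, 4.50 and 4.57. Of these, CERSUDRAFT_114386 averaged 424 ± 72.0 CPM with vanillate and 94.3 ± 16.9 CPM with water (SD, n = 3 each), and CERSUDRAFT_97176 averaged 41.5 ± 2.39 CPM with vanillate and 8.30 ± 0.51 CPM with water (SD, n = 3 each). Just outside it, CERSUDRAFT_84291 had a ratio of 3.97, with means of 753 ± 10.9 CPM with vanillate and 189 ± 16.8 CPM with water (SD, n = 3 each). CERSUDRAFT_153610 had a ratio of 3.96, with means of 465 ± 55.4 CPM with vanillate and 117 ± 21.4 CPM with water (SD, n = 3 each). CERSUDRAFT_88457, CERSUDRAFT_83086 and CERSUDRAFT_89287 followed at 3.95, 3.92 and 3.92. The 5 loci inside had log2 fold changes of 2.07 to 2.32, and the 5 outside had 1.98 to 2.04.

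Neither the vanillate flasks nor the water flasks were alike at these loci, a property the choice by group means did not use directly. Among water flasks, flask 3 was the highest at 45 loci (54.2%, against 35.9% of genes tested) and flask 1 at 17 (20.5%, against 36.8%). Flask 1 was the lowest of the vanillate flasks at 47 loci (56.6%) and the highest at 7 (8.43%), whereas among all genes tested it was the lowest at 35.7% and the highest at 32.9%. Flask 2 was the highest at 40 loci and flask 3 at 36. The median locus was higher in flask 2 than in flask 1 by 0.18 and in flask 3 than in flask 1 by 0.11 on the log2 scale, and the medians over all genes tested were 0.01 and 0.002. A difference of at least 1.5-fold, with 0.5 CPM added to each flask, favoured flask 2 over flask 1 at 12 loci (14.5%, against 1.70% of genes tested) and flask 1 over flask 2 at 1 (1.20%, against 1.22%). By the same measure, flask 3 exceeded flask 1 at 3 loci (3.61%, against 1.86%) and flask 1 exceeded flask 3 at 2 (2.41%, against 1.87%). Flask 1 was also the flask with the fewest counts and the most reads of low alignment quality, and the part of these in its lower levels was not tested. The median spread between vanillate flasks (SD over mean) was 12.8% at the 83 loci and 6.84% over all genes tested, and between water flasks it was 8.91% and 7.81%. The ratio uses a mean that 1 high flask can raise, so this spread is not independent of the choice, and it was not tested.

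**Figure D5:**
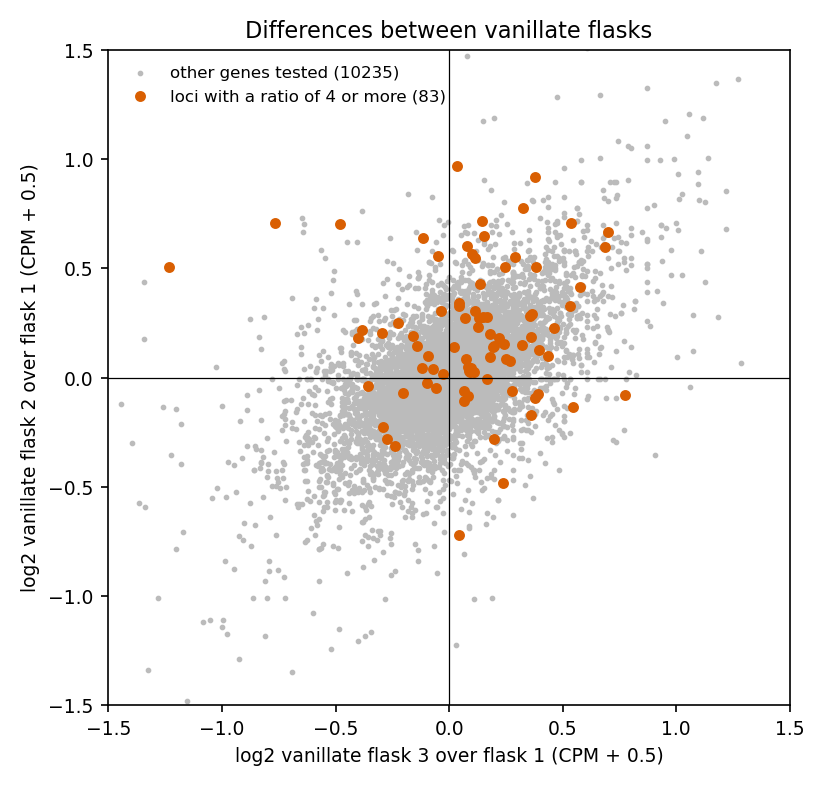
Difference of vanillate flask 2 from flask 1 (vertical axis) against that of flask 3 from flask 1 (horizontal axis), as log2 of CPM + 0.5, for the 83 loci (orange) and the other genes tested (grey, of which 18 lie outside the axes). More loci lie above and to the right of 0 than below and to the left, and a few stand apart at the upper left, high in flask 2 and low in flask 3.

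Flasks 2 and 3 also differed from each other, and in opposite directions at different loci. Flask 2 exceeded flask 3 by at least 1.5-fold, again with 0.5 CPM added, at 7 loci (8.43%, against 1.40% of genes tested) and flask 3 exceeded flask 2 at 4 (4.82%, against 1.19%). Without that addition, the largest such difference was at CERSUDRAFT_161387, which had 23.9 CPM in flask 2 and 6.78 CPM in flask 3, a 3.52-fold difference that was 2.90-fold in the first library of each flask and 4.19-fold in the other. CERSUDRAFT_150776 had 66.3, 109 and 38.7 CPM in the vanillate flasks, against 5.28, 4.43 and 4.77 CPM in the water flasks. Its water flasks were level, and vanillate flask 2 exceeded flask 3 by 2.80-fold. CERSUDRAFT_124825 had 9.08, 15.1 and 6.37 CPM in the vanillate flasks, against 1.46, 1.55 and 1.19 CPM in the water flasks, a 2.37-fold difference between the same flasks. The opposite pattern was clearest at CERSUDRAFT_140571, with 92.9, 87.8 and 159 CPM in the vanillate flasks, against 22.8, 25.1 and 25.3 CPM in the water flasks. There flask 3 stood 1.81-fold above flask 2, at 1.76-fold and 1.86-fold in the separate libraries, while flasks 1 and 2 were close. Of the 83 loci, 74 had flasks 2 and 3 in the same order in both libraries, and 6 of the 7 and 4 of the 4 loci passed 1.5-fold in each library with 0.5 CPM added. Libraries taken as repeats differed by little more than counting error, so this agreement bears on counting error only.

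Repeat libraries gave nearly the same ratios at most loci. The ratio from the first and from the other libraries differed by a median of 0.07 and at most 0.61 on the log2 scale, the latter at CERSUDRAFT_114943, named after its values were seen. The fit, which does not use that ratio, gave CERSUDRAFT_98240 log2 fold changes of 7.47 from the first libraries and 6.80 from the others. For CERSUDRAFT_121712 it gave 5.70 and 6.00. At least 4-fold was reached in both library sets by 82 of the 83 loci, and the exception, CERSUDRAFT_53162, was at 4.15 and 3.96. Between flasks of a group, log2 levels of the 83 loci had a Pearson r of 0.976 to 0.988 with vanillate and 0.987 to 0.994 with water, and between a vanillate and a water flask it was 0.758 to 0.792; these are correlations over loci within pairs of flasks, not over replicates.

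Genes of known kinds from a fixed list could be matched only by symbol. The 39 matched were laccases, class II, heme-thiolate and cytochrome c peroxidases, a peroxiredoxin, MFS carriers and a ferroxidase. Ring-opening dioxygenases were not among them, so the breakdown of vanillate itself was not examined here. None of the 39 reached the ratio, which only 0.680% of loci with an identifier reached. Of 38 tested, 10 rose and 16 fell by edgeR's quasi-likelihood test at a Benjamini-Hochberg adjusted p under 0.05, where 25.5% of all genes tested were called higher and 25.9% lower. Their median log2 fold change was 0.18, beside -0.01 over all genes tested. With library totals 7 of the 38 rose and 17 fell, where 17.3% of all genes tested were called higher and 36.9% lower, and their median was 0.05, beside -0.14 over all genes tested. PRX5, by its symbol a peroxiredoxin, an enzyme that removes peroxides, came nearest among them, with 744, 832 and 850.4 CPM in the vanillate flasks, against 264, 296 and 327 CPM in the water flasks. Its ratio was 2.73 (log2 fold change 1.45, SE 0.09, edgeR adjusted p = 1.02e-08). CsMn06, outside that list, had the highest ratio of any gene with a symbol, 2.95. Of 16 class II peroxidases, the secreted heme enzymes that attack lignin, 15 were tested, 1 rose and 9 fell, the median log2 fold change was -0.45 and the highest ratio was 1.40. Of 7 laccases, copper oxidases of phenols, 2 rose and 3 fell, at a median of -0.13, and the highest ratio was 2.29.

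The same ratio was computed for Trametes versicolor, the other white-rot fungus of the series. Its cultures were younger, with vanillate or water added on day 5 and harvest on day 6. Cellobiose, temperature, culture volume, the doses of both antioxidants and the pulses matched those given above for G. subvermispora. Flask depth for T. versicolor was 5185591 to 7672499 gene counts with vanillate and 3950984 to 13835447 with water. In G. subvermispora 83 of 12203 loci with an identifier (0.680%) reached 4, with a highest ratio of 251, a median of 8.62 and 5 loci at 64 or more. In T. versicolor 169 of 14528 (1.16%) did, with a highest ratio of 2651, a median of 7.60 and 22 loci at 64 or more. Those T. versicolor loci took 6.74% ± 0.604 (SD, n = 3) of gene counts with vanillate and 0.265% ± 0.0111 with water. The genes of the fungi were not matched to each other, and neither the difference in number nor that in share was tested.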

How the data were processed

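RNA of G. subvermispora mycelium was measured in 12 libraries, taken as 2 from each of 6 flasks, and that of T. versicolor in 12 more. The authors deposited raw read counts per gene for each library, not normalized. FastQC, STAR and HTSeq are named, with no version, in the submitters' processing notes. For genome build, annotation and counting options, the sources used here give no entry. The last 5 lines of each table count reads outside genes, 20.1% to 30.0% of reads per G. subvermispora flask, which were kept out of totals and tests. Reads aligned to more than 1 place were listed at 0, so reads of near-identical copies, and of overlapping or antisense genes, may be lost or shared.

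Libraries with the same title number were summed per flask, giving 3 flasks per group. CPM and the selecting ratio used TMM factors over all 12313 genes. Log2 fold changes with their SE (the absolute value divided by the square root of F) came from edgeR 4.0.16 in R 4.3.3: filterByExpr (min.count 10, min.total.count 15), TMM, and the robust two-sided quasi-likelihood F test, with Benjamini-Hochberg adjustment over 10318 genes. This fit was tested on simulated data. There all genes were given the same spread between flasks beyond counting error, and the folds set were smaller than the largest found here. P-values cover only the variation among the flasks sequenced, which may be technical. The members and lists were chosen with earlier results of these data known.

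Loci named in the text are those with the 15 highest ratios, the 10 highest vanillate means, the 5 highest water means, the 5 nearest the threshold on each side and the 5 with the largest spread between vanillate flasks (SD over mean, vanillate mean of at least 5 CPM). Further parts of the rule, on neighbouring genes, product names and like proteins of T. versicolor, were not run. No gene order, product name or protein was used here. DESeq2 1.42.0, other scalings, filters and constants, and leaving out each flask or library set were tried as alternatives.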

Additional observations from a re-analysis of the deposited data

How the results depend on the processing

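The number of loci at a ratio of 4 or more was 83, and under the 15 alternatives tried it was 67 to 91, always within 1.5 times. It was 81 with library totals, 83 with DESeq2 size factors and 85 with either library alone, and 82 to 91 on leaving out a flask, the highest without water replicate 3, where all 83 were kept and 8 joined. The constant added to both means mattered most: 86 loci passed with 0.25 CPM, 75 with 5 CPM and 67 with 10 CPM. Requiring the lowest vanillate flask to be 4-fold above the highest water flask gave 82 loci, of which 72 were among the 83 and the other 10 were too low to pass the filter on counts.

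The median log2 fold change of the 83 loci, 3.14, was 3.01 with library totals, which put the median of all genes tested at -0.14, against -0.01 with TMM. On leaving out a flask it was 3.09 to 3.17. Their share of gene counts was then 4.77% to 5.12% with vanillate and 0.535% to 0.555% with water, and 2240 to 2657 genes were called higher and 2234 to 2753 lower. With a replicate block, 2522 genes were called higher and 2553 lower and the median of the 83 loci was 3.13; no count of calls moved by more than 1.5 times. No pairing of flasks by number was seen. The correlation of same-numbered flasks' deviations from their group means was -0.03, 0.04 and -0.17. Of the 3 vanillate flasks, 0 correlated best with the water flask of the same number. With 3 flasks a group, these values cannot show whether same-numbered flasks were handled together. Of 434 recomputed fold changes of the 31 named members, 425 moved by less than the spread between flasks, 9 moved by more and 0 reversed; the largest move was that of CERSUDRAFT_161387 without water replicate 3, given above. Other definitions of a neighbouring gene or of a like protein in T. versicolor were not run, since no gene order or protein was used here. Depth limits the 8 loci with under 100 counts in the water flasks, whose counting intervals are wide.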
